A study of Homo sapiens with 4 samples.

Results

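The region described here is the stretch of chromosome 7 that holds CAV2, CAV1 and MET, from 115900000 to 116600000 on hg19 (700 kb). Its members are all c-Jun ChIP-seq peaks with their centre in that stretch, chosen by position and not by score. There were 42 such peaks among 23721 in the 4 deposited peak lists. Joining peaks that overlapped by at least 1 bp gave 19 separate sites, out of 12091 over the genome, and these are numbered site 1 to site 19 along the chromosome.

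The cells were BT549, a long-established line from a human triple-negative breast cancer, starved of serum overnight. ChIP-seq recovers crosslinked chromatin with an antibody and sequences the recovered DNA. There were 2 c-Jun libraries (antibody H-79), 1 made after TNFalpha treatment and 1 made without it, and each was called against normal rabbit IgG and against input DNA. The treatment lasted 6 hours per the sample labels and 3 hours per the series text. Both controls were made from cells given TNFalpha, so the library without TNFalpha had no control from cells in its own state. Each condition had 1 library, and no test and no p-value can be given for any difference between them. The depth of the libraries is unknown.

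c-Jun pairs with itself or with a relative such as a Fos protein to form AP-1, a DNA-binding complex that is activated by stress and by inflammatory signals such as TNFalpha. CAV1 encodes caveolin-1, the main structural protein of caveolae, which are small pits of the cell membrane that take part in membrane tension and signalling. CAV2 encodes caveolin-2, which forms mixed complexes with caveolin-1. MET encodes the receptor tyrosine kinase for hepatocyte growth factor, a signal for cell scattering, motility and growth. CAV1 and MET are both strongly expressed in many basal-like breast cancer lines.

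On hg19 CAV1 extends from 116164839 to 116201239 and MET from 116312459 to 116438440, both on the forward strand. The hg19 position of CAV2 was not used here. In the gene order of RefSeq on GRCh38.p14, CAV2 is the gene directly before CAV1, TES is the nearest protein-coding gene before CAV2, the long noncoding RNA gene COMETT lies between CAV1 and MET, and CAPZA2 and ST7 follow MET. TES encodes testin, an adaptor of focal adhesions, and CAPZA2 a subunit of an actin capping protein. Sites were therefore placed against CAV1 and MET only. Where the sites before CAV1 lie relative to CAV2 and TES was not determined, so none of them is assigned to CAV2.

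The 250 bases before the start of each member gene, from RefSeq on GRCh38.p14 and on the forward strand, are shown because a c-Jun peak lay on the start of CAV1 and none lay near the start of MET. Capitals mark any match to the AP-1 site TGACTCA with at most 1 mismatch on either strand (the other strand reads TGAGTCA).
CAV2: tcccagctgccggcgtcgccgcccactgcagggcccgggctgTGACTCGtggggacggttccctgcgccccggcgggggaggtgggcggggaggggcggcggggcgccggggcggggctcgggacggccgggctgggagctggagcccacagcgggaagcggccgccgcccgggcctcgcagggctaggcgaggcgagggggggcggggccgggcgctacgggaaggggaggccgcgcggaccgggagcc
CAV1: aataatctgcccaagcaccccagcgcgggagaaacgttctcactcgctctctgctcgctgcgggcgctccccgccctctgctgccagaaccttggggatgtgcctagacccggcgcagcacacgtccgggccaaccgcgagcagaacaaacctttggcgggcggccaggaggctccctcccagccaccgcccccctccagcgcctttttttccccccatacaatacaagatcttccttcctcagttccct
MET: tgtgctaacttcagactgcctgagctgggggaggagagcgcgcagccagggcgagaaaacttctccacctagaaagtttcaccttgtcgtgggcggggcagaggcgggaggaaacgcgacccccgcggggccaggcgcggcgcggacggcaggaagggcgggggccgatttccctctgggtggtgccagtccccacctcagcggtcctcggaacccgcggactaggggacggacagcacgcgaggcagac

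CAV2 held 1 match with a single mismatch, starting 208 bases before its start, and CAV1 and MET held 0. Of 27305 genes with such a sequence, 40.8% held at least 1 match of this kind. The complete site TGACTCA was in 0 of the 6 promoter entries that RefSeq gives for these genes (2 for CAV2, 3 for CAV1 and 1 for MET, each 300 bases), and in 4.95% of 35116 entries. The related site TGACGTCA was also in 0 of the 6, and in 1.85% of all. All 3 stretches were richer in G and C than the median gene (58.0%), at 83.2% for CAV2, 63.6% for CAV1 and 68.4% for MET. The searched windows and the peaks are on different builds, so how far the CAV1 window lies under its peak was not determined, and the sequence under the other sites was not searched.

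c-Jun peaks were more numerous in the region with TNFalpha under either control. Against IgG, 4 of the 3323 peaks without TNFalpha and 11 of the 4439 peaks with TNFalpha lay there, a ratio of 2.75, where the whole lists had a ratio of 1.34. Against input, 9 of 7919 and 18 of 8040 lay there, a ratio of 2.0, where the whole lists had a ratio of 1.02. Each IgG-controlled peak of the region was also called against input with the same limits, so the peaks called against both controls also numbered 4 and 11. Such double calls were common over the genome, at 3086 of the 3323 peaks without TNFalpha and 4159 of the 4439 with it. In each library 100% of them had the same limits in both lists, so double calling does not set the region apart. The lists hold only peaks above the caller's threshold, so a site without a peak was not called, which is not the same as unbound.

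**Figure D1:**
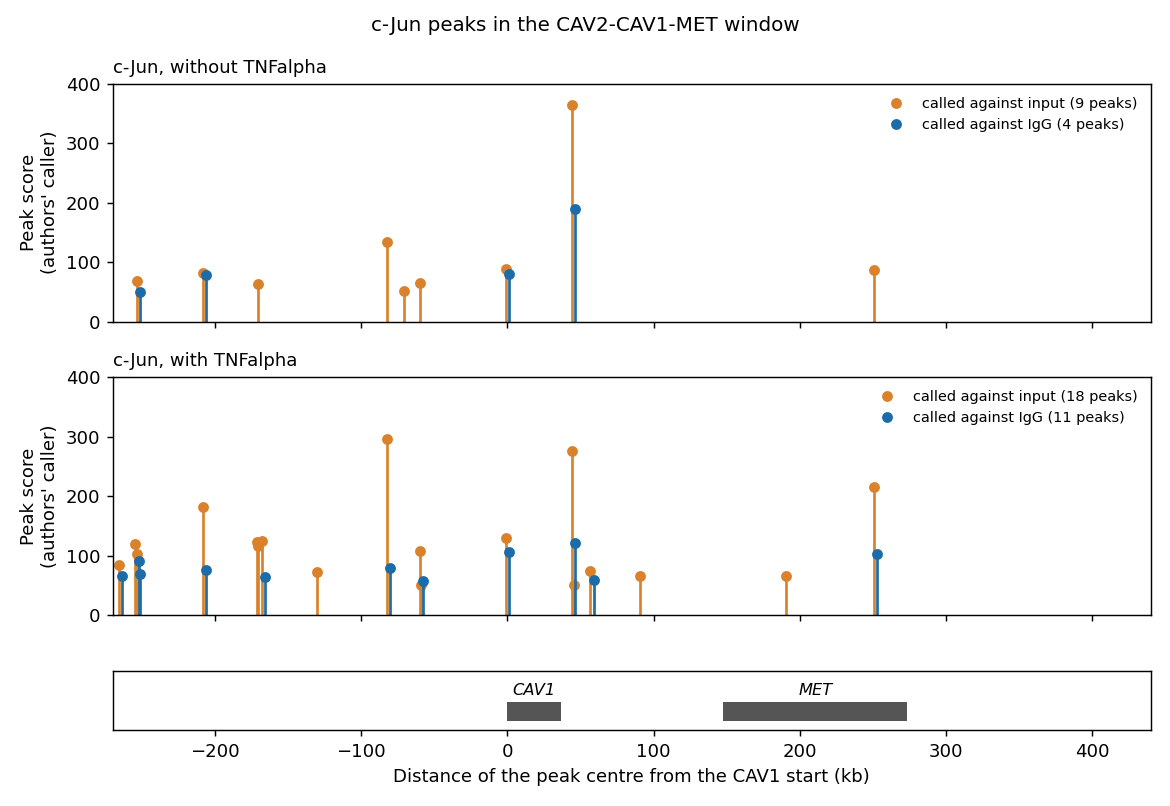
Score of each c-Jun peak (vertical axis, score of the authors' peak caller, no unit) against the distance of its centre from the CAV1 start (horizontal axis, kb), in the library without TNFalpha (top) and with TNFalpha (middle), with the CAV1 and MET bodies as grey bars (bottom). Orange marks calls against input (9 and 18 peaks) and blue calls against IgG (4 and 11), drawn slightly to either side of the true position so that both can be seen. The tallest peak without TNFalpha stands 45.2 kb past the CAV1 start.

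Against IgG, the difference in number lay among peaks of lower score. Scores come from the authors' peak caller on a scale that the sources used here do not give, so libraries were compared by the rank of a score inside its list. The lists also differed in level: the median score was 77.4 without and 86.18 with TNFalpha against IgG, and 75.79 and 94.6 against input, so a pair of raw scores given for a site is not by itself a change. With TNFalpha, 4 of the 11 IgG-controlled peaks of the region scored above the median of their list, and the best ranked 1241 of 4439 (the top 28.0%). Without TNFalpha, 3 of the 4 did, and the best ranked 239 of 3323 (the top 7.19%). Among the higher scoring 50% of each list, peaks called against both controls therefore numbered 4 with and 3 without TNFalpha. With both IgG-controlled lists cut to their 3323 highest scoring peaks, the region held 9 both-control peaks with TNFalpha and 4 without. Against input the pattern was another one: 11 of the 18 peaks with TNFalpha and 5 of the 9 without it scored above the median of their list.

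Among the 11 both-control peaks of the TNFalpha library, 7 had a counterpart in the other library and 4 had none (36.4%, 95% Wilson interval 15.2 to 64.6%, counting error only). Over the genome 35.9% of such peaks were found only with TNFalpha, so this share was close to the background. Of the 4 both-control peaks without TNFalpha, 0 were found only there (95% Wilson interval 0 to 49.0%), against 20.1% over the genome. That interval includes the genome-wide share, and 4 peaks are too few to show a difference. Leaving both-control status aside, 10 of the 19 sites were called only with TNFalpha (52.6%, 31.7 to 72.7%; all sites 33.5%). A single site was called only without TNFalpha (5.26%, 0.935 to 24.6%; all sites 31.8%), and 8 were called in both libraries (42.1%, 23.1 to 63.7%; all sites 34.7%). These intervals also give counting error only. The 19 sites are neighbours from the same pair of libraries, in a region proposed with its peaks known. The intervals are therefore no test against the shares of all sites. Of the 10 sites called only with TNFalpha, 6 were called only against input, and so was the single site without TNFalpha. Such calls were common over the genome, so they do not set the region apart. They made up 2372 of the 4055 sites called only with TNFalpha and 3112 of the 3841 called only without it.

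By position, 12 of the 19 sites lay before CAV1, 1 on the CAV1 start, 4 between CAV1 and MET, and 2 in the MET body. The 264 kb before CAV1 held 4.55 sites per 100 kb, the 110 kb between the genes 3.63 and the MET body 1.6. No list had a peak in the CAV1 body beyond 1 kb from its start, within 1 kb of the MET start, or in the 162 kb after MET. Sites called only with TNFalpha were found before CAV1 (6), between CAV1 and MET (3) and in the MET body (1).

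**Figure D2:**
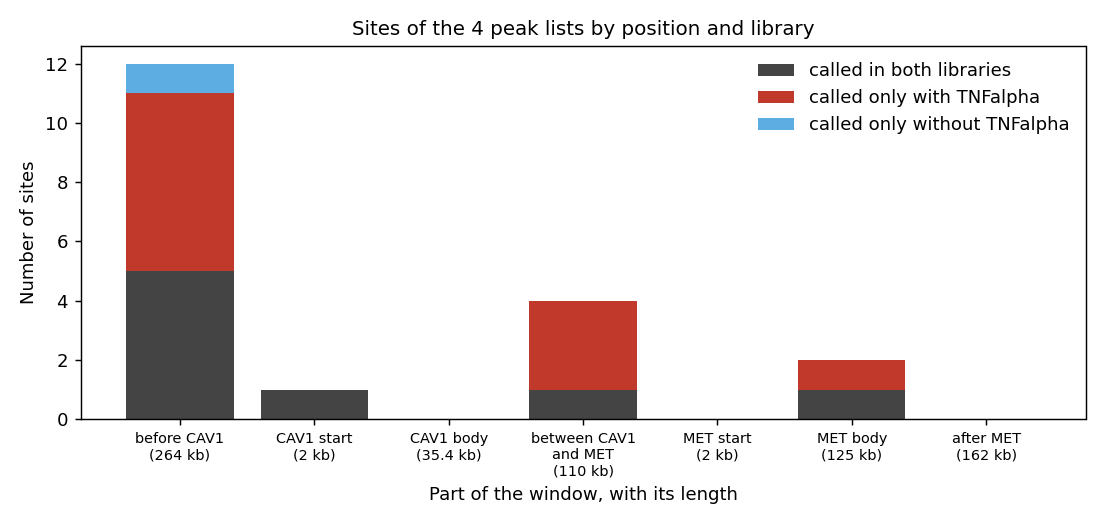
Number of sites (vertical axis) in 7 parts of the region (horizontal axis, with the length of each in kb), where a gene start is the stretch within 1 kb of it. Dark bars are sites called in both libraries (8), red bars sites called only with TNFalpha (10) and the blue bar the site called only without TNFalpha, and the part before CAV1 holds 12 of the 19.

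At CAV1 itself, site 13 (116164607 to 116164997) lay on the gene start and was called in all 4 lists. Without TNFalpha the peak ran from 116164674 to 116164997 and scored 80.24 against IgG (rank 1571 of 3323) and 88.44 against input (rank 3270 of 7919). With TNFalpha it ran from 116164607 to 116164964 and scored 105.83 against IgG (rank 1569 of 4439) and 130.21 against input (rank 2684 of 8040). Its rank was thus in the middle of each list, and somewhat higher with TNFalpha: the top 47.3% became the top 35.3% against IgG, and the top 41.3% became the top 33.4% against input. The peaks overlapped by 291 bp and their centres were 50 bp apart. It was the only site within 1 kb of either gene start, and within 5 kb as well. Site 12, the last one before it, ended 57.9 kb away, and no list had a peak in that gap.

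Past CAV1, site 14 (116209734 to 116210246) was the strongest site of the region without TNFalpha and the shared site that fell in rank under both controls. It lay 8.75 kb past the end of CAV1 and 102 kb before the start of MET. Without TNFalpha it scored 189.32 against IgG (rank 239, the top 7.19%) and 364.58 against input (rank 204, the top 2.58%). With TNFalpha it scored 121.89 (rank 1241, the top 28.0%) and 275.56 (rank 756, the top 9.4%). It still had the highest IgG-controlled score of the region with TNFalpha, while site 9 passed it against input. Next to it, site 15 (116211140 to 116211440) was called only with TNFalpha and only against input, with a score of 50.37, close to the lowest of the list. Site 16 (116222413 to 116222875) was called against both controls only with TNFalpha, with scores of 59.46 against IgG (rank 3625) and 73.9 against input (rank 5272). Site 17 (116256769 to 116257005), 55.6 kb before the MET start, was called only with TNFalpha against input, with a score of 65.51.

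Inside MET there were 2 sites. The one nearer the 3' end, site 19 (116416674 to 116416986), lay 104 kb past the MET start and 21.6 kb before its end. Against input it scored 87.27 without TNFalpha (rank 3323 of 7919, the top 42.0%) and 216.12 with it (rank 1214 of 8040, the top 15.1%). Against IgG it was called only with TNFalpha, with a score of 102.9 (rank 1623, the top 36.6%). Site 18 (116356696 to 116356992), 44.4 kb past the MET start, was called only with TNFalpha and only against input, with a score of 66.05 (rank 5880, the top 73.1%). Whether these sites are intronic or exonic was not determined, since no hg19 exon annotation was used.

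Before CAV1, sites 9 and 11 had the same pattern of calls as site 19. Site 9 (116083112 to 116083498), 81.5 kb before the CAV1 start, scored 133.36 against input without TNFalpha (the top 22.7%) and 296.31 with it (rank 642, the top 7.99%). The latter was the highest input-controlled score of the region with TNFalpha. Against IgG site 9 was called with TNFalpha alone, with a score of 79.91 (rank 2456 of 4439, the top 55.3%), below the median of that list. Site 11 (116105819 to 116106143) scored 64.52 and then 108.41 against input (the top 62.1% and the top 42.4%), and 57.72 against IgG with TNFalpha alone (the top 86.3%). In all, 4 shared sites of the region were called against input alone without TNFalpha, and 3 of them were called against both controls with it, where over the genome 32.1% of 1624 such sites were. In the opposite direction, 1 shared site (site 6, scoring 63.77 without TNFalpha, the top 63.1%, and 115.59 with it, the top 39.0%) was called against input alone with TNFalpha, and it was not called against both controls without it, where over the genome 24.1% of 1453 were.

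Farther from CAV1, sites 3 and 4 were called in all 4 lists. Site 3 (115912117 to 115912457) was among the weakest IgG-controlled peaks without TNFalpha, with a score of 50.39 (rank 3299 of 3323), and scored 69.56 with it (rank 2927 of 4439). Against input it scored 68.55 (the top 57.5%) and 102.12 (the top 45.4%). Site 4 (115957178 to 115957750) gave different answers under the controls. Its IgG-controlled scores were 78.91 without TNFalpha (the top 48.7%) and 76.65 with it (the top 57.9%), while its input-controlled scores were 81.99 (the top 44.8%) and 182.05 (the top 20.4%). Its peaks overlapped by 188 bp, with centres 192.5 bp apart, the widest shift among the 8 shared sites.

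Sites 1, 2 and 7, with site 16 above, were the 4 both-control sites called only with TNFalpha. Site 1 (115899848 to 115900193) scored 65.97 against IgG, site 2 (115911138 to 115911429) scored 91.35, and site 7 (115997800 to 115998092) scored 64.78. The 4 had a median IgG-controlled score of 65.38 and ranks from 2031 to 3625 of 4439. The 7 shared both-control peaks with TNFalpha had a median of 79.91, scores from 57.72 to 121.89 and ranks from 1241 to 3833, so the ranges overlapped. The centre of site 1 was 20 bp inside the region's limit, and without it 3 of 10 both-control peaks were found only with TNFalpha.

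Several sites called only with TNFalpha stood directly beside a site present in both libraries, a pattern seen after the values were known. Site 2 ended 0.687 kb before site 3, site 5 (115994475 to 115994848) lay 0.179 kb from site 6 (115995028 to 115995370), site 12 (116106566 to 116106711) lay 0.422 kb from site 11, and site 15 lay 0.893 kb from site 14. These were 4 of the 10 sites called only with TNFalpha, where over the genome 7.55% of 4055 such sites lay within 1 kb of a shared site. The genome-wide share was not matched for the density of shared sites. The region held 8 of them in 700 kb, and the genome 4195. For sites called only without TNFalpha the genome-wide share was 5.91%, and the single one of the region, site 10 (116095143 to 116095367, input-controlled score 51.24), lay 10.5 kb from the nearest shared site. Of these 4, site 2 alone was called against IgG. Site 12 scored 51.29 and site 15 scored 50.37, near the lowest score of the list, while site 5 scored 123.5 and site 2 scored 120.03 against input. Site 8 (116035565 to 116035802, score 71.9) was the remaining site called only with TNFalpha and only against input.

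Ranks of the shared sites with and without TNFalpha depended on the control. In whole lists, 7 of the 8 shared sites ranked higher with TNFalpha against input (43.8% of 4020 shared sites over the genome), the exception being site 14. Against IgG, 2 of the 4 sites in both lists did, sites 3 and 13 (51.2% of 2219). Because the lists differ in length, ranks were also taken only among sites present in both lists of a control, which gives both libraries the same number of ranks. The counts were again 7 of 8 against input (47.8% over the genome) and 2 of 4 against IgG (47.7%). On this scale the input-controlled rank of site 9 went from 1627 to 574, of site 19 from 2673 to 1032 and of site 4 from 2801 to 1344 of 4020. Site 14 went from 194 to 669 against input and from 236 to 937 of 2219 against IgG. The 8 sites share the same pair of libraries, so they do not count as separate replicates of an effect of TNFalpha.

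**Figure D3:**
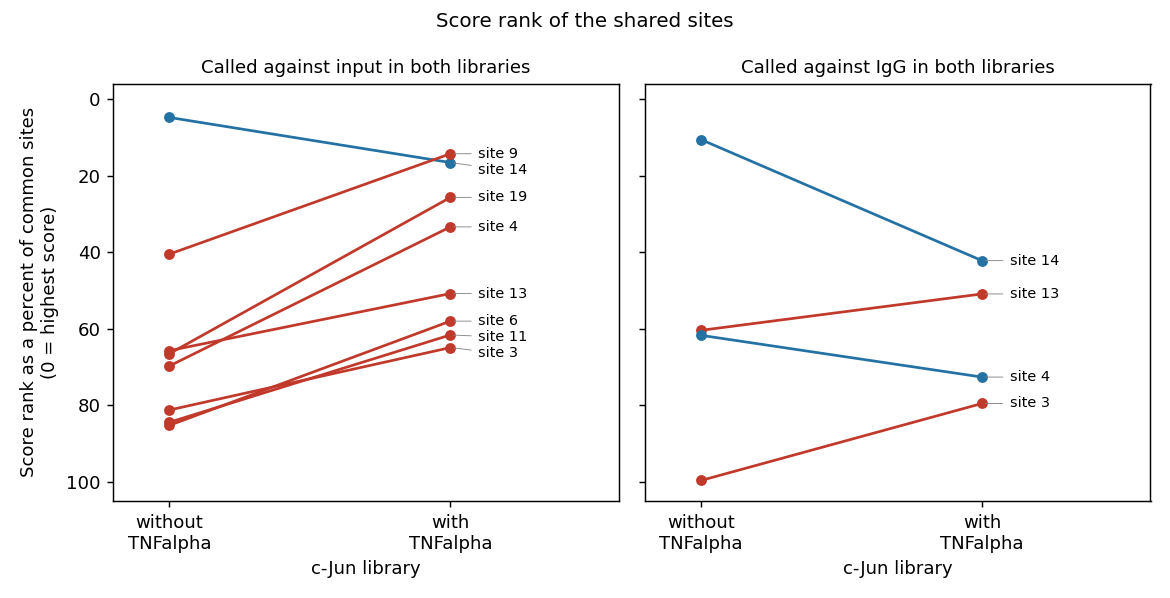
Score rank of each shared site as a percent of the sites present in both lists of a control (vertical axis, 0 for the highest score), without and with TNFalpha (horizontal axis), for calls against input (left, 8 sites among 4020) and against IgG (right, 4 sites among 2219). Red lines rise and blue lines fall in rank with TNFalpha: 7 rise against input and 2 against IgG, and site 14 falls in both panels.

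The region was dense in c-Jun peaks in both libraries. With TNFalpha it held 15.7 both-control peaks per Mb, against 1.12 on chromosome 7 and 1.37 over chromosomes 1 to 22 and X. Without TNFalpha it held 5.71 per Mb, against 0.883 and 1.02. When the genome was divided into 4307 adjoining tiles of the same length, 8 tiles (0.186%) held at least 11 both-control peaks with TNFalpha, and 158 (3.67%) held at least 4 without it. The region was proposed with its peaks known and its limits start at its first site, so these shares describe it and are no test. Outside it, the nearest peak before site 1, at 114626442 to 114626642, ended 1270 kb away. The nearest after site 19, at 116772542 to 116772715, began 356 kb away, 173 kb outside the region. The lists were sparse elsewhere too: in either library the median 700 kb tile held 0 both-control peaks and 1 input-controlled peak. The spacing of peaks over the genome was not computed, so neither distance has a background.

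**Figure D4:**
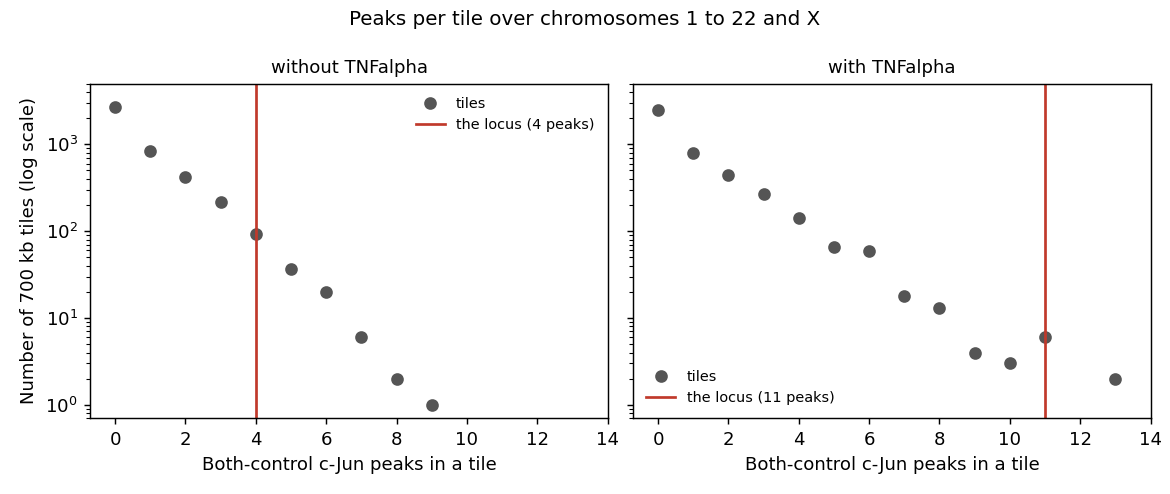
Number of 700 kb tiles of chromosomes 1 to 22 and X (vertical axis, log scale) by the number of both-control c-Jun peaks they hold (horizontal axis), without TNFalpha (left) and with TNFalpha (right); each dot is a count of tiles, and counts of 0 are not drawn. The red line marks the CAV2, CAV1 and MET region, at 4 peaks without TNFalpha and 11 with it, where 158 and 8 of 4307 tiles hold as many or more.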

How the data were processed

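Each of the 2 c-Jun libraries had 2 peak lists, called against IgG and against input, per the labels. The submitters' processing notes name CASAVA 1.8, Bowtie 0.12.9 and the hg19 build. The score of each peak was made by the authors before the lists were deposited. The peak names begin with MACS, and the caller's version and threshold were not given in the sources used here. Read depth is unknown.

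Start positions were raised by 1 to be 1-based. A peak was both-control where the IgG list and the input list of a library had peaks overlapping by 1 bp or more, and shared where it overlapped any peak of the other library. For a site, the highest scoring peak of a list stood for it. Gene limits of CAV1 and MET on hg19 came with the definition of the region. The naming rule covered sites called against both controls in a library and the 5 highest scoring others, and the remaining 3 sites were named too. The intended counts at other caveola and MET pathway genes were not run, since no hg19 annotation was used. The members, lists and alternatives were chosen with earlier results of these data known.

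Python 3.11.15, numpy 2.4.6, pandas 2.3.3, scipy 1.17.1 and matplotlib 3.10.9 were used. The overlap code was checked against bedtools 2.31.1 (0 of 24 counts differed). It was also run on 600 simulated peaks placed in 1 library, where the total found per library matched the total placed. Single simulated peaks were not compared, and they stood far apart, so close neighbours were not tried. The 95% Wilson intervals treat peaks as independent.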

Additional observations from a re-analysis of the deposited data

How the results depend on the processing

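No paired analysis was possible because there was 1 library with TNFalpha and 1 without, which also left no replicate to omit. The main counts were 11 and 4 both-control peaks with and without TNFalpha, with 4 and 0 found only in that library. With the IgG-controlled lists alone, 7 of the 11 peaks were found only with TNFalpha. Over the genome these lists held 4439 peaks with and 3323 without TNFalpha, and 2219 sites were in both. With the input-controlled lists alone there were 18 and 9 peaks, with 10 and 1 found only in that library. Over the genome these lists held 8040 and 7919 peaks, and 4020 sites were in both. A large part of each whole list thus had no counterpart either. Among the higher scoring 50% of the lists, 4 and 3 peaks were left and 1 was found only with TNFalpha. With reciprocal overlap of at least 50%, the peaks of site 4 no longer matched, so that the numbers found in 1 library were 5 with TNFalpha and 1 without. The number of shared sites with a higher rank with TNFalpha was 2 of 4 against IgG and 7 of 8 against input, where more sites are ranked. Counting a peak of the other library within 500 bp as a counterpart left 4 and 0 peaks found only in that library. That setting could not change the 11 and 4. Equal list lengths, overlap with the window, and a window narrowed by 1 kb (added after seeing the data) kept each count within 1.5 times its main value or at 0. So did the covered bases for the ratios to chromosome 7 and the 5 kb distance for promoters. The share of all peaks found in 1 library was not computed for the higher scoring 50%, the 50% reciprocal overlap, the 500 bp distance or equal list lengths. Counts found in 1 library under those settings therefore have no background, and whether they differ from all peaks cannot be told. Unknown depth limits every statement that a site was not called.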
